A study of Mus musculus with 4 samples.

Results

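Saa3 encodes serum amyloid A 3, a secreted acute-phase protein, and it was the 1 gene taken here from the 1696 genes that the authors' deposited tables list in the uterus, the ovary or both. It was chosen by the log2 fold changes of these tables, because they pointed in opposite directions in the 2 tissues, higher in hypoxia in the uterus and lower in hypoxia in the ovary, so the direction and size of both values are a description and not a test. Uterus and ovary came from pregnant mice at embryonic day 3.5. The 4 groups were uterus under normoxia, uterus under hypoxia, ovary under normoxia and ovary under hypoxia, and the low-oxygen exposure was placed 72 hours after fertilization. RNA of 3 samples was pooled for each group, so each group was 1 library and no difference given here has a replicate check. The sources used here give neither strain and age nor the oxygen level and the length of exposure.

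Serum amyloid A proteins travel on high-density lipoprotein and are made in large amounts when inflammatory cytokines reach a tissue. In the mouse, Saa1 and Saa2 are made mainly by the liver and Saa4 is made constitutively, whereas Saa3 is made mostly outside the liver, by macrophages, adipocytes, stromal cells and epithelium. Its transcription is known to be driven by interleukins, tumour necrosis factor and bacterial products through NF-kappa-B and C/EBP factors. Human SAA3 is a pseudogene, so the gene is studied mainly in mice.

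The authors' deposited tables give a log2 fold change for each gene and no counts. In both tables every ratio, once divided by 1 factor that all genes of a tissue share, 0.995 for uterus and 0.952 for ovary, was a ratio of whole numbers. These whole numbers, called terms, were taken to be 1 more than the number of reads. That reading is an inference, and a common factor of both terms would be lost, so the true counts could be larger. The sources used here give no library totals, so depth is unknown and counts cannot be compared between the uterus and the ovary. Neither table names its numerator, and a positive value was assumed to mean more RNA in hypoxia than in normoxia. If both tables were divided the other way, both directions of Saa3 would turn and would still be opposite, and if the 2 tables were divided in different ways the directions would be the same.

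Since Saa3 has close relatives, the sequences are shown first, to let the reader see what separates a Saa3 read from a read of Saa1, Saa2 or Saa4. On GRCm38, the assembly also called mm10, Saa3 (ENSMUSG00000040026.8) lies on the minus strand of chromosome 7 from 46711998 to 46715700. The lines give exon 3 of each gene, the exon that is coding over its whole length, 5′ to 3′ from the GENCODE M21 transcripts. Capitals mark bases that differ from Saa3.
Saa3: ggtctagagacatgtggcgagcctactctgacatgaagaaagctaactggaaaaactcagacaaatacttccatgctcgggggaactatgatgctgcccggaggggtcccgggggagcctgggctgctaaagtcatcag
Saa1: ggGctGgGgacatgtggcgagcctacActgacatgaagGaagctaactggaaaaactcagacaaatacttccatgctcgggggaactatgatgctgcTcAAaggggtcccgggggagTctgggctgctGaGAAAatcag
Saa2: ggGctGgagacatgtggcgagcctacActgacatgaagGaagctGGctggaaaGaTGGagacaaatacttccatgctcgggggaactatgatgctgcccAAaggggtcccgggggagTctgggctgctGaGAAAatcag
Saa4: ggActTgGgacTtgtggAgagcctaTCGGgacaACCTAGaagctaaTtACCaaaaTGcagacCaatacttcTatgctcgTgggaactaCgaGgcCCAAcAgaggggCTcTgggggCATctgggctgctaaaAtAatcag
Exon 3 of Saa3 spans 46712589 to 46712727 on chromosome 7 and has 139 bases. Over this exon Saa1 differed from Saa3 at 14 bases, Saa2 at 18 and Saa4 at 39, with no gaps. Saa1 and Saa2 differed from each other at 8 bases. Over the whole coding sequence the identity to Saa3 was 74.1% for Saa1, 72.5% for Saa2 and 61.3% for Saa4, while Saa1 and Saa2 were 95.1% identical. Of the 531 windows of 25 bases in the Saa3 transcript, 36 (6.78%) also occurred in Saa1, Saa2 or the pseudogene Saa-ps. Of the 506 windows of 50 bases in the 555-base Saa3 transcript, 9 (1.78%) also occurred in another annotated gene, Saa1. Of the 481 windows of 75 bases none did (0 windows), and of the 456 windows of 100 bases none did (0 windows). Saa1 shared more of its windows of 75 bases, 4.67% of them, all with Saa2. The sources used here name neither the read length nor the counting options.

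In the uterus the inferred Saa3 count was 12 in normoxia, with an exact Poisson interval of 6.20 to 21.0, and 53 in hypoxia, with an interval of 39.7 to 69.3. These 95% intervals cover counting error only and do not overlap. The authors' deposited table gave a log2 fold change of 2.05, a 4.13-fold higher value in hypoxia. That fold rests on the terms, whereas the exact counting interval of the fold, 2.32 to 9.04, was taken from the inferred counts.

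In the ovary the inferred Saa3 count was 1243 in normoxia, with an exact Poisson interval of 1175 to 1314, and 208 in hypoxia, with an interval of 181 to 238. Here the normoxia library held the higher count, again with intervals that do not overlap. The authors' deposited table gave -2.64, a 6.25-fold lower value in hypoxia. The exact counting interval for normoxia over hypoxia, taken from the inferred counts, was 5.41 to 7.30. In these bulk tissues, fewer cells that make Saa3 and less Saa3 RNA per cell cannot be told apart.

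The difference between the tissues, uterus minus ovary, was 4.69 on the log2 scale, from the 2 values of the authors' deposited tables. This is a 25.8-fold ratio of the 2 folds. The conditional exact interval of this ratio, taken from the inferred counts, was 14.2 to 57.5 and covers counting error only. The spread between animals could not be measured.

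**Figure D1:**
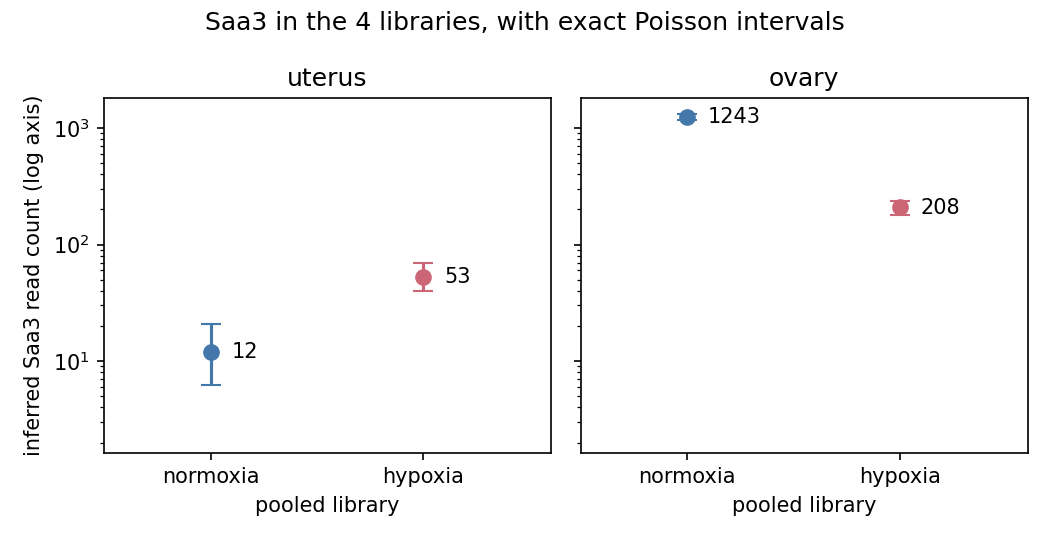
Inferred Saa3 read counts (vertical log axis) in the pooled normoxia and hypoxia libraries of uterus and ovary, with exact 95% Poisson intervals as bars. The uterus had 12 in normoxia and 53 in hypoxia, and the ovary 1243 and 208; counts are not scaled between tissues.

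The 2 values rest on very different amounts of data. The authors' deposited table lists 903 genes for the uterus, of which 491 (54.4%) were higher in hypoxia, and 854 genes for the ovary, of which 421 (49.3%) were lower. The uterus value of Saa3 lay just past the log2 threshold of 2 that the study set, and 476 of the 491 higher genes had a larger value. By the sum of its terms, 67, Saa3 ranked 81 among all listed uterus genes, and the median sum was 8. In the ovary its sum was 1453, rank 10 of all listed genes, against a median sum of 7. Of the 222 genes that the authors' deposited table for the ovary classes as protein coding, 8 had a sum at least as large, Saa3 included. In the ovary 122 of the 421 lower genes had a value further below 0.

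**Figure D2:**
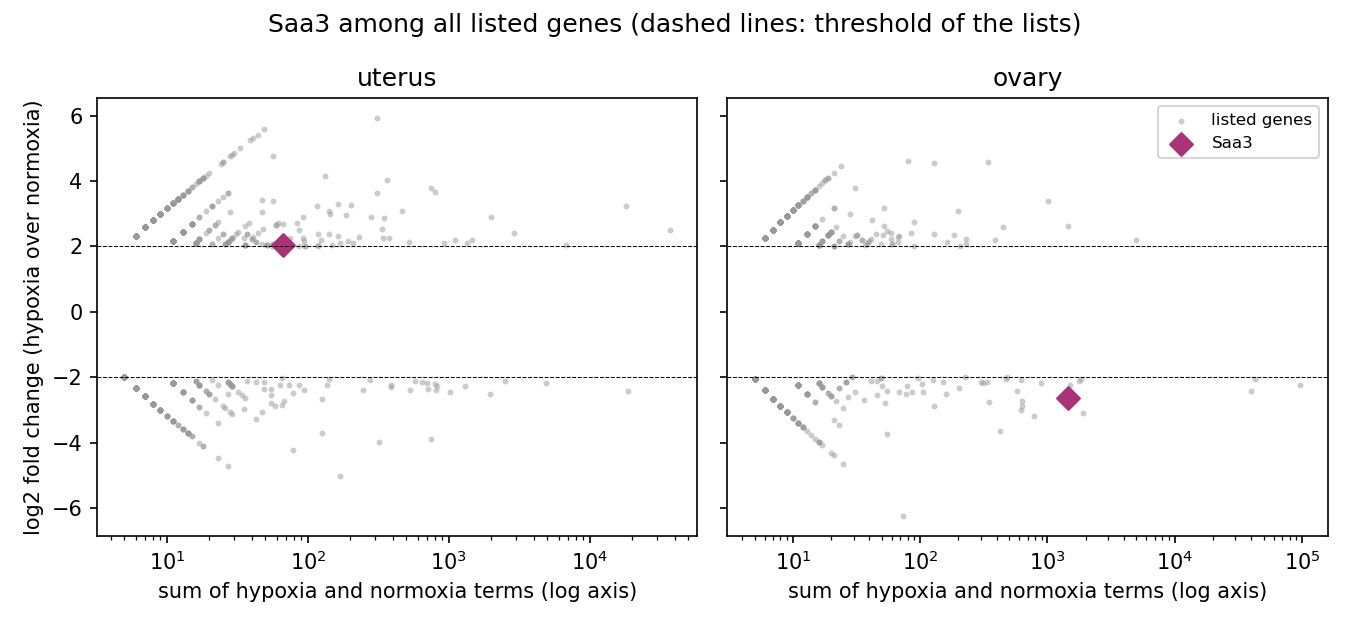
Log2 fold change (vertical axis, hypoxia over normoxia) against the sum of both terms (horizontal log axis) for every listed gene of each tissue, with Saa3 as a diamond. Saa3 sits at a sum of 67 just above the dashed threshold in the uterus and at a sum of 1453 among the lower ovary genes; the slanted rows are ratios of small whole numbers.

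Protein-coding genes of at least the size of Saa3 and the same direction show what other transcripts had a like value. In the uterus 41 other genes met these terms, and the 5 nearest in the authors' deposited table were Myoc at 2.04, S100a9 at 2.04, Igfbp2 at 2.02, Clec4d at 2.01 and Nrg1 at 2.01, with Pcdh10 tied with Nrg1. S100a9 encodes a calprotectin subunit of neutrophils and Clec4d a lectin receptor of myeloid cells. Igfbp2 encodes a binding protein of insulin-like growth factors and Nrg1 a ligand of ErbB receptors. The inferred S100a9 counts were 22 in normoxia and 94 in hypoxia, and the Clec4d counts were 16 and 68. In the ovary 5 other genes met these terms. The authors' deposited table gave Lars2, a mitochondrial tRNA synthetase gene, -2.41, the aminopeptidase gene Xpnpep2 -2.24, the aromatase gene Cyp19a1 -3.11, the retinol dehydrogenase gene Rdh1 -2.13 and the interferon-induced gene Oas2 -2.05. The inferred counts of Xpnpep2 were 1234 in normoxia and 273 in hypoxia, the closest in size to those of Saa3. The ribosomal RNA gene CT010467.1, named after its values were seen, had -2.24 in the authors' deposited table, with inferred counts of 79386 in normoxia and 17664 in hypoxia, and its part in the lower ovary values was not tested.

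The tissues shared 61 listed genes, which is 6.76% of the uterus list and 7.14% of the ovary list. Of these, 21 (34.4%) had opposite directions, and 13 (21.3%) were, like Saa3, higher in the uterus and lower in the ovary. If the 2 tables were divided in different ways, the 40 genes with equal signs (65.6%) would be the opposite ones instead. Saa3 had the largest smaller sum of terms of all 61 genes. The median of this smaller sum was 6, so most shared genes rest on a handful of reads. With at least 20 as the sum of terms in each tissue, 4 shared genes were left, of which 2 had opposite directions, Saa3 and the noncoding RNA gene Gm36684, named after its values were seen.

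Likeness to Saa3 was measured as the distance between the 2 values of a gene and those of Saa3, over the 2 tissues. The 5 nearest genes were the processed pseudogene Gm11966 at a distance of 0.26, the testis-expressed gene Tex22 at 0.27, the unnamed transcript Gm19972 at 0.36, the acyl-CoA synthetase gene Acsm5 at 0.42 and the microRNA gene Mir615 at 0.44. They were near in value and far in size. Gm11966 had inferred counts of 7 in normoxia and 34 in hypoxia in the uterus, and of 4 and 0 in the ovary. Tex22 had 0 and 4 in the uterus, and 5 and 0 in the ovary. Acsm5 had 1 and 8 in the uterus, and 8 and 1 in the ovary. For Gm11966, Tex22, Gm19972 and Mir615 the counting interval of the fold included 1 in at least 1 tissue, and for Acsm5 it excluded 1 in both.

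Of all 61 shared genes, 18 (29.5%) had counting intervals that excluded 1 in both tissues. All 61 were listed by the size of fold changes from the same counts. Whether an interval excludes 1 thus rests mostly on the number of reads and is not a test. Among the 18 genes, 7 (11.5% of the 61) had opposite directions, and 5 of the 7 were higher in the uterus and lower in the ovary. These 5 were Saa3, Acsm5, the pseudogene Gm14794, Gm36684 and Fat2, an atypical cadherin gene. Gm14794 was named after its values were seen. Gm36684 had inferred counts of 4 in normoxia and 23 in hypoxia in the uterus, and of 391 and 32 in the ovary. It was thus higher in hypoxia in the uterus and lower in the ovary. Fat2 had 0 and 7 in the uterus, and 20 and 4 in the ovary. The immunoglobulin gene segment Ighv1-55 also followed the direction of Saa3, with 1 and 12 in the uterus and 4 and 0 in the ovary, where its interval included 1.

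**Figure D3:**
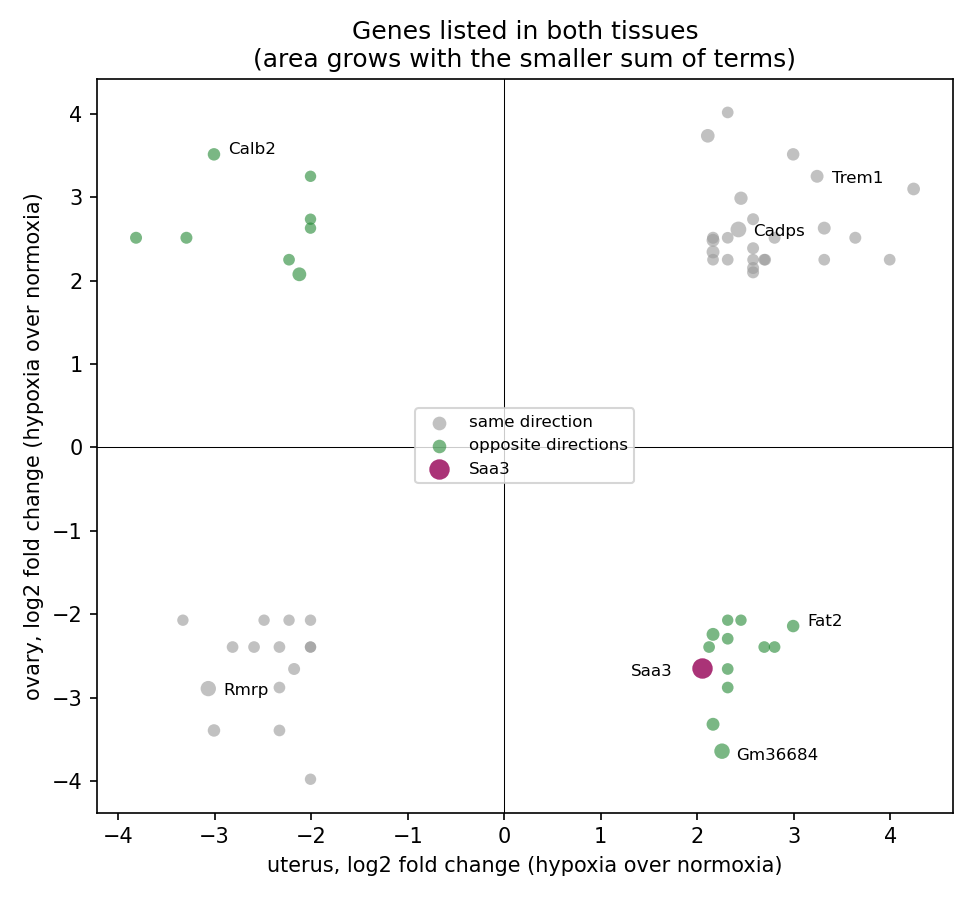
Log2 fold change in the ovary (vertical axis) against the uterus (horizontal axis) for the 61 genes listed in both tissues; point area grows with the smaller of the 2 sums of terms. Saa3 lies at 2.05 and -2.64 as the largest point, among 13 genes in the corner that is higher in the uterus and lower in the ovary.

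The serum amyloid A family has 4 members in the mouse, and Saa3 was the 1 member listed in each tissue. Saa1, Saa2 and Saa4 were in neither list. Absence from a list says only that a gene did not pass the threshold or was not counted, not that it did not change. Saa4, Saa1 and Saa2 lie 12298, 24797 and 36090 bases from Saa3, and the unrelated gene Saal1 lies 1318 bases away on the other side. Within 1000000 bases of Saa3 the annotation holds 88 other genes. None of them was listed in the uterus (0 genes), and 1, the noncoding RNA gene Gm44969, was listed in the ovary. Over all annotated genes 1.56% were listed in the uterus and 1.45% in the ovary, so these counts are near the background.

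**Figure D4:**
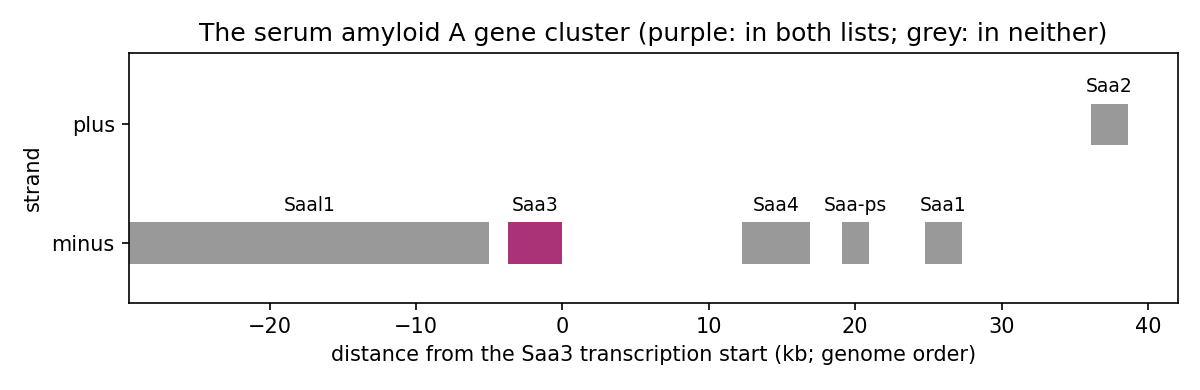
Map of the serum amyloid A cluster by distance from the Saa3 transcription start (horizontal axis, kb) and strand (vertical axis). Of the 6 genes drawn, Saa3 alone is in the lists.

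Among 33 other acute-phase genes, 2 were listed in the uterus and 2 in the ovary. For comparison, 1.51% of annotated protein-coding genes were listed in the uterus and 1.0% in the ovary, a base that includes genes with no reads. In the uterus 0.867% were listed as higher in hypoxia and 0.643% as lower, and in the ovary 0.461% as higher and 0.543% as lower. In the uterus the authors' deposited table gave Lcn2, which encodes the iron-siderophore binder lipocalin 2, 4.03, and the antitrypsin gene Serpina1b -2.24. The inferred counts of Lcn2 were 20 in normoxia and 343 in hypoxia, and those of Serpina1b were 60 and 12. In the ovary Lcn2 was not listed, and the authors' deposited table gave the antitrypsin gene Serpina1e 2.07 and the metallothionein gene Mt2 -2.39. The inferred counts were 4 in normoxia and 21 in hypoxia for Serpina1e, and 4 and 0 for Mt2, whose interval included 1. The Serpina1 genes are near-identical copies whose reads the authors' counting could have split.

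Genes upstream and downstream of Saa3 were looked up in both lists, where 1.51% of annotated protein-coding genes were listed in the uterus and 1.0% in the ovary. At these shares lists of this length would hold few or no listed genes, so an absence is not a result about them. None of the 20 inducing cytokines and receptors (0 genes), which include Il1b, Il6 and Tnf, was listed in either tissue. Nor was any of the 16 transcription factors of acute-phase induction (0 genes), which include Nfkb1, Cebpb, Cebpd and Stat3, or of the 15 chemokines and effectors downstream of serum amyloid A (0 genes), which include Cxcl1, Ccl2 and Ptgs2. Of the 11 receptors described for serum amyloid A, 1 was listed, the formyl peptide receptor gene Fpr2, to which the authors' deposited table of uterus genes gave 2.32. Fpr2 had inferred counts of 0 in normoxia and 4 in hypoxia, and its counting interval included a fold of 1. The absences above hold only for the genes on the chosen lists. The authors' deposited uterus table held other cytokine genes higher in hypoxia, among them Il1f6 at 4.77, Il19 at 2.39 and Il11 at 2.13. Among chemokine genes there, Ccl28 at 2.89 and Ccl17 at 2.17 were higher and Ppbp at -2.18 was lower. These genes were picked from the whole list with values in view, and their part in the Saa3 values was not tested.

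Markers of cells that can hold Saa3 RNA were set beside it. Of 22 macrophage markers and 12 fibroblast and stroma markers none was listed in either tissue (0 genes), near the shares of 1.51% and 1.0% over annotated protein-coding genes. Of 23 neutrophil markers 8 were listed in the uterus, all higher in hypoxia, against the 0.867% of annotated protein-coding genes. The list was chosen with earlier results of these data known, so this share is a description and not a test. That base includes genes with no reads, and Lcn2 also stands among the acute-phase genes. The inferred counts of the 8 markers summed to 1825 in normoxia and 17090 in hypoxia. Most of it was Ltf, a lactoferrin gene that uterine epithelium also expresses. Without Ltf and Lcn2 the other 6 summed to 66 and 345. S100a8 had 38 and 192. Stfa2l1, named after its values were seen, and Fpr2 were at 0 in normoxia. In the ovary 1 of the 23 was listed, the myeloid receptor gene Trem1, with 0 in normoxia and 9 in hypoxia, a direction opposite to that of Saa3 there, where 0.461% of annotated protein-coding genes were listed as higher. The part of neutrophils in the uterus value of Saa3 was not tested.

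The other marker lists held 1 listed gene or none per tissue, against shares of 1.51% in the uterus and 1.0% in the ovary over annotated protein-coding genes. Of 18 adipocyte markers, the leptin gene Lep was listed in both tissues, lower in each. Its inferred counts were 8 in normoxia and 1 in hypoxia in the uterus, and 5 and 0 in the ovary, where its interval included 1. Of 12 mesothelium and ovarian surface markers, Lrrn4 was listed in the uterus. The authors' deposited table gave Lrrn4 -2.53, on inferred counts of 1662 in normoxia and 289 in hypoxia, opposite to Saa3, and no mesothelium marker was listed in the ovary (0 genes). Of 14 epithelial markers of the uterus, the protease inhibitor gene Spink1 was listed at -2.12 in the authors' deposited table, with 463 in normoxia and 106 in hypoxia. Of 10 oviduct markers, the ciliary dynein gene Dnah9 was listed in the uterus, with 0 and 11, and Ccdc153 in the ovary, with 0 and 5 and an interval that included 1. The part of these cell types in the Saa3 values was not tested. None of the 6 markers that define the uterus or of the 11 that define the ovary was listed (0 genes), and since the tables hold no levels the tissue labels could not be checked against them.

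**Figure D5:**
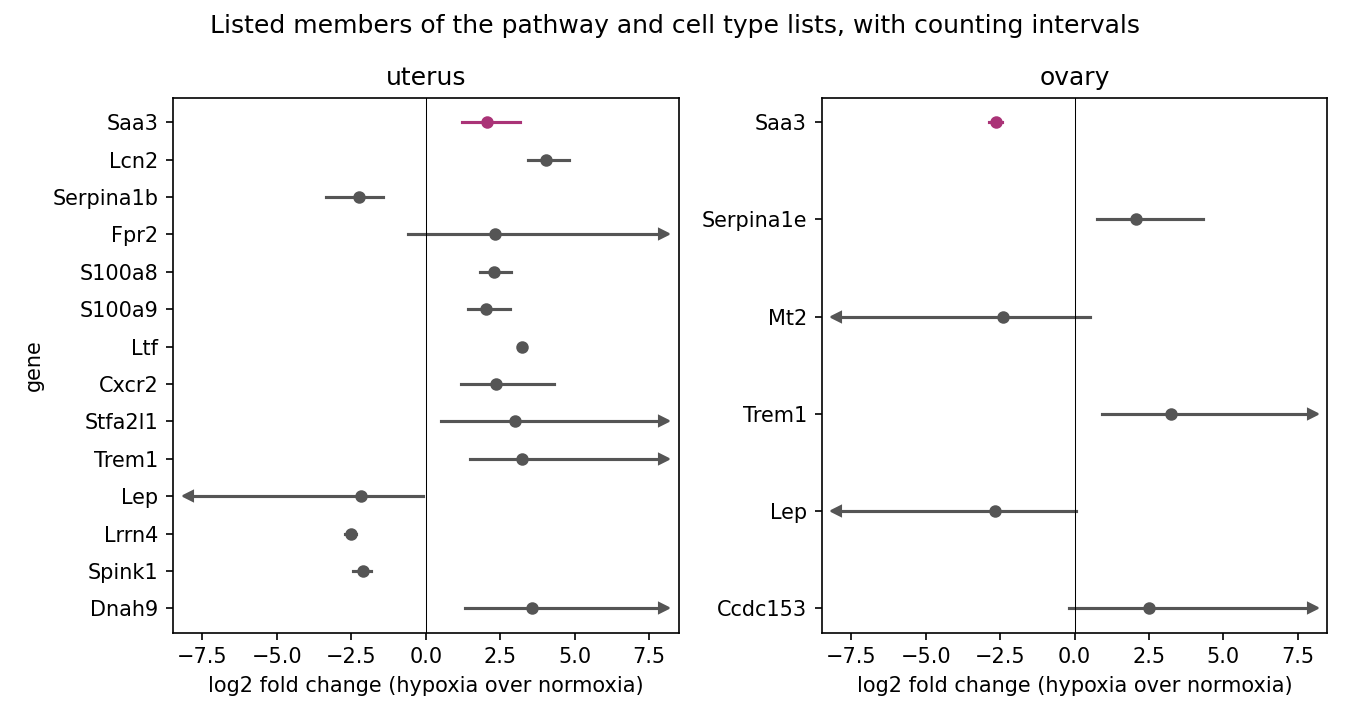
Log2 fold change (horizontal axis, hypoxia over normoxia) of Saa3 and of each other listed member of the pathway and cell type lists in uterus and ovary; bars are exact 95% counting intervals of the fold and arrows mark intervals that run past the axis. Saa3 lies at 2.05 on the side of the neutrophil genes S100a8 and S100a9 in the uterus, and at -2.64 with a narrow interval in the ovary.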

How the data were processed

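RNA was sequenced from 4 pooled libraries, uterus and ovary under hypoxia or normoxia. Per the labels' protocols, ISOGEN II served for RNA extraction, polyadenylated RNA was selected and directional libraries were made. Per the submitters' processing notes, FastQC 0.73, HISAT2 2.2.1, HTSeq 0.9.1, DESeq2 2.11.40.7 were used, with mm10 as the build. Per the file headers, the authors deposited a log2 fold change per gene, and the lists hold values of at least 2 in absolute size. Depth is unknown.

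Terms were recovered by continued fractions at a relative tolerance of 5e-14, and the step was tested on simulated data. The simulated ratios were built with 1 added to each count and scored on terms without common factors. The simulation therefore could not check the reading of the terms as counts plus 1, or the loss of a common factor. Intervals of 95% (Clopper-Pearson for folds, exact Poisson for counts, conditional exact for the difference between tissues) used the terms less 1. Transcripts were compared by global alignment and exact windows on GENCODE M21 (GRCm38). No significance test was made, since each group is 1 library.

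Saa3 and the gene lists were chosen with earlier results of these data known. Named genes were Saa3, its 5 nearest shared genes, shared genes with symbols and its direction, up to 4 members of each list (those with the largest sums of terms), listed genes within 1000000 bases, and 5 protein-coding genes per tissue of like value. Alternatives were a pseudocount of 5, other readings of the terms, stricter thresholds and a minimum sum of 20. Python 3.11.15, NumPy 2.4.6, pandas 2.3.3, SciPy 1.17.1, Biopython 1.88 and matplotlib 3.10.9 were used.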

Additional observations from a re-analysis of the deposited data

Results flagged for a closer look

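Saa3 and 8 other named genes stand here because their signs in uterus and ovary were opposite, and the difference between the tissues was not tested for any of them. For Saa3 the authors' deposited tables gave 2.05 for uterus and -2.64 for ovary. The authors' deposited tables gave Gm11966 2.12 for uterus and -2.39 for ovary, and Tex22 2.32 for uterus and -2.66 for ovary. Gm19972 had 2.32 for uterus and -2.88 for ovary per the authors' deposited tables, and Acsm5 had 2.16 for uterus and -2.24 for ovary. For Mir615 the authors' deposited tables held 2.32 for uterus and -2.29 for ovary, and for Ighv1-55 2.69 for uterus and -2.39 for ovary. They held 2.26 for uterus and -3.64 for ovary for Gm36684, and 2.99 for uterus and -2.14 for ovary for Fat2, again per the authors' deposited tables. Of these 9 genes, Saa3 and Gm36684 had a sum of terms of at least 20 in both tissues. Gm14794, named above but not among the 9, also had opposite signs. The authors' deposited tables gave it 2.16 for uterus and -3.32 for ovary.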

How the results depend on the processing

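None of the 4 alternatives tried for Saa3 could turn its sign, and the unstated numerator, which could, was not among them. With a pseudocount of 5 the uterus value was 1.76, with the terms as counts and the same pseudocount 1.71, and with doubled terms and the same pseudocount 1.89, each short of the threshold of 2, so the listing of Saa3 in the uterus depends on the pseudocount. Without the shared factor it was 2.05. The ovary value stayed between -2.63 and -2.57, and the difference between tissues between 4.32 and 4.63. Of the 13 shared genes higher in the uterus and lower in the ovary, 0 were left at a threshold of 2.5, 0 at 3 and 2 at a minimum sum of 20. Of the 21 with opposite directions, 3, 1 and 2 were left. These settings keep fewer genes by construction. No paired analysis was possible because each group is 1 pooled library. No library could be left out for the same reason. Depth is unknown, and the uterus value rests on 12 inferred reads in normoxia.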
